A study of Homo sapiens with 3 samples.

Results

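MIAPaCa-2 cells treated for 24 h with a PLK1 inhibitor were compared here with the same cells left untreated. MIAPaCa-2 is an established human pancreatic cancer cell line, and the inhibitor was NMS-P937 (PLK1i), a small molecule given at 80 nM. Of the 14949 genes in the expression table, 10782 were described, namely those whose normalized value averaged at least 200 over all 3 libraries of the study. Both cultures compared carried sh-CTL, the control short hairpin RNA, and only the culture labelled sh-CTL + PLK1i received the drug, a state written below as after PLK1i. The third library, sh-METTL3, came from untreated cells whose hairpin is directed at METTL3, the catalytic subunit of the m6A RNA methyltransferase, and it served as a second drug-free reference. Each group was 1 library of bulk RNA, so no value has a replicate error and no test between conditions was possible. A vehicle control is not given in the sources used here, and the labels do not give the age, passage or clonality of the lines.

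PLK1 is a serine/threonine kinase that is activated before mitosis, when BORA presents it to the kinase Aurora A. It then acts on mitotic entry, centrosome maturation, attachment of chromosomes to the spindle, the anaphase-promoting complex and cytokinesis, and cells in which it is blocked are known to stop in mitosis with unseparated chromosomes. Many transcripts of mitosis are themselves made in G2 and M phase, so they are a natural first group to read. The inhibitor acts on the protein, whereas the libraries measure the RNA, and in bulk RNA fewer cells of a kind cannot be told apart from less RNA per cell.

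The libraries held 37449328 reads in listed genes in sh-CTL, 47727511 in sh-CTL + PLK1i and 46944898 in sh-METTL3. All differences given below are log2 of the normalized value + 1, sh-CTL + PLK1i minus sh-CTL, and a gene was called higher or lower at a difference of 0.4 or more, which is a 1.32-fold change. The range beside a difference is an exact 95% interval from the reads of both libraries, and it covers counting error only. It left out 0 for 54.4% of the genes, so on its own it says nothing of a difference between conditions. The cells had the keratins KRT8 and KRT18 of epithelial cells at 96333 and 51258 in sh-CTL and the mesenchymal filament VIM at 244755. The epithelial adhesion genes EPCAM and CDH1, the duct gene CFTR and the pancreatic factor PDX1 were not listed in the table used here, and neither were PTPRC, CD3E and PECAM1 of blood and endothelium. CD68, a lysosomal glycoprotein best known from macrophages, was listed at 1755 in sh-CTL, 2647 after PLK1i and 3243 in sh-METTL3. METTL3 itself (chromosome 14, 21966277 to 21979484, minus strand of hg19) stood at 3939 in sh-CTL, 3888 after PLK1i and 1651 in sh-METTL3, so the drug-treated library sat at the level of its own control.

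Most genes differed little. The median difference over the 10782 genes was 0.0047 with an SD across genes of 0.23, and 73.8% of the genes lay within 0.2 of 0. A total of 274 genes, or 2.54%, were called higher after PLK1i and 342 genes, or 3.17%, were called lower. Only 19 genes (0.176%) were higher by 1 or more on the log2 scale and 7 (0.0649%) were lower by that much. When the treated library also had to differ by 0.4 from sh-METTL3 in the same direction, 157 genes (1.46%) were higher than in both drug-free libraries and 212 (1.97%) were lower. Both comparisons share the treated library. The drug-free libraries also differed from each other, with an SD across genes of 0.41 for sh-METTL3 minus sh-CTL. Calls were more frequent among weakly expressed genes, as 115 of the 1708 genes with a mean from 200 to 500 were called higher and 151 lower, against 19 and 28 of the 1937 genes above 5000. At the minimum itself, DTWD2 with a mean of 200.01 was the last gene included and LINC01002 with a mean of 199.7 the first left out. CSRNP1, an early response gene with a mean of 199.4 and a difference of 0.97, also fell just outside.

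**Figure D1:**
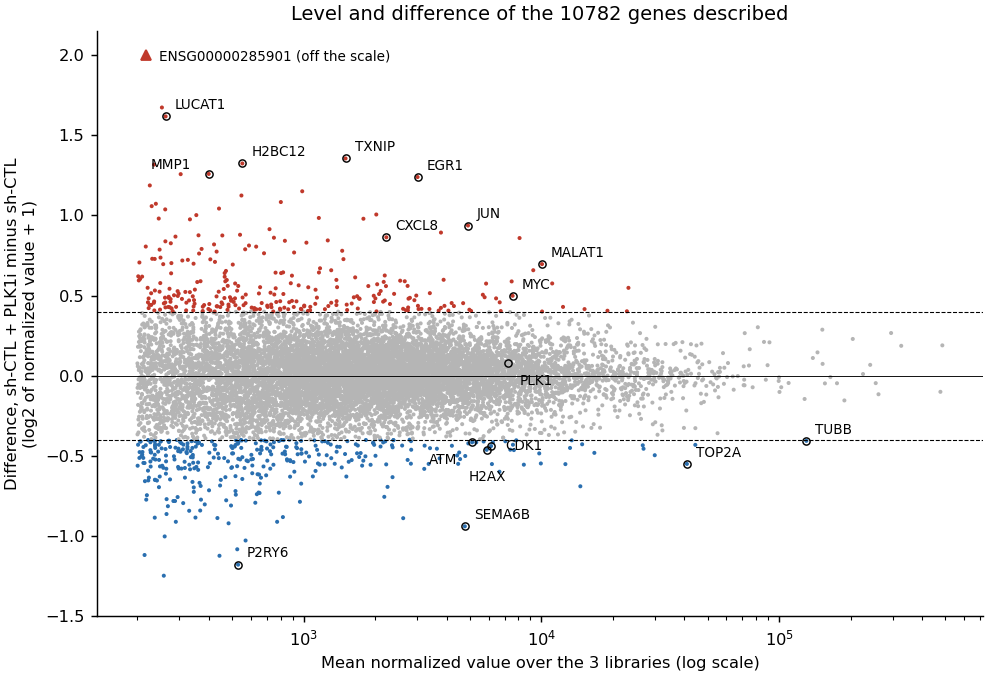
Difference between sh-CTL + PLK1i and sh-CTL (vertical axis, log2 of normalized value + 1) against the mean normalized value over the 3 libraries (horizontal log axis), with 1 point per gene. Red points are the 274 genes at or above 0.4, blue points the 342 genes at or below -0.4 (dashed lines), and the triangle is a gene with no read in sh-CTL. PLK1 sits near 0, and the circled EGR1, JUN and MYC stand above the band of genes of similar level.

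The target of the drug barely differed at the RNA level. PLK1 (chromosome 16, 23688977 to 23701688, plus strand of hg19) was measured at 8058 in sh-CTL, 8515 after PLK1i and 5226 in sh-METTL3, a difference of 0.08 (interval 0.03 to 0.12) whose interval lies above 0 but which is far under the call size. The library that stood apart for PLK1 was sh-METTL3. Among the other polo-like kinases, PLK4, which starts centriole duplication, differed by 0.05 (interval -0.05 to 0.14) and PLK2 by 0.03. PLK3, a stress-responsive kinase of the family, was the only one of the 4 called higher, at 506 in sh-CTL, 719 after PLK1i and 488 in sh-METTL3 and a difference of 0.51 (interval 0.34 to 0.68).

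Genes of mitosis differed little as a group. Across 7 lists covering mitotic entry, the Aurora kinases and chromosomal passengers, kinetochore and checkpoint, the anaphase-promoting complex, mitotic kinesins, condensin and cohesin, and the centrosome, 148 genes were described, of which 3 were called higher and 3 lower, or 2.03% in each direction. Of all genes 2.54% were called higher and 3.17% lower. The median of the 148 genes was 0.0049, next to 0.0047 for all genes. The exceptions were single genes, and they included the partner kinase of cyclin B.

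CDK1 (chromosome 10, 62538089 to 62554610, plus strand of hg19), the kinase that drives entry into mitosis, was measured at 6487 in sh-CTL, 4781 after PLK1i and 7165 in sh-METTL3. It was thus lowest in the treated library, with a difference of -0.44 (interval -0.50 to -0.39) from sh-CTL. Its cyclins did not share this, with CCNB1 at 20692 in sh-CTL, 22525 after PLK1i and 21261 in sh-METTL3, a difference of 0.12, and CCNB2 and CCNA2 at 0.08 and 0.12. TOP2A (chromosome 17, 38544777 to 38574148, minus strand of hg19), the topoisomerase that untangles sister chromatids, had 36983 reads in sh-CTL and 31959 in the larger treated library, a difference of -0.55 (interval -0.57 to -0.53). Its normalized values were 43126 in sh-CTL, 29422 after PLK1i and 50297 in sh-METTL3, and the treated library lay under both drug-free libraries. FZR1 (CDH1 of the anaphase-promoting complex, its activator at mitotic exit and in G1) was at 2406 in sh-CTL, 1638 after PLK1i and 2634 in sh-METTL3, a difference of -0.55.

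The genes called higher in these lists were modest. BORA, the cofactor through which Aurora A activates PLK1, stood at 1363 in sh-CTL, 1811 after PLK1i and 1399.6 in sh-METTL3 and was higher than sh-CTL by 0.41 (interval 0.30 to 0.52). AURKA, which encodes Aurora A, came close to a call at 0.36, with 9665 in sh-CTL, 12415 after PLK1i and 10656 in sh-METTL3. The other genes called were KIF18A, a kinesin that shortens kinetochore microtubules, at 0.42, and CNTROB, a centriole duplication protein, at 0.42. Of the spindle checkpoint and kinetochore genes, 0 of 36 were called, and their differences ran from -0.40 for SPC24 to 0.24 for CENPT. Tubulins split, since TUBA1C (-0.43) and TUBB (-0.41), an alpha and a beta chain, were lower and TUBB6 (0.42) was higher, among 9 tubulin genes. TUBB was measured at 140174 in sh-CTL, 105695 after PLK1i and 144876 in sh-METTL3, lowest in the treated library.

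Genes of DNA synthesis gave no call, next to 2.54% of all genes called higher and 3.17% lower. In the lists for origin licensing, the replication fork and nucleotide synthesis, 79 genes were described, 0 were called in either direction, 51 lay below 0 and the median was -0.073, next to 0.0047 for all genes. The purine and pyrimidine genes and the origin loaders had medians above 0, at 0.053 and 0.014. The helicase subunits MCM3 (-0.37), MCM5 (-0.35) and MCM6 (-0.33) were near the lower end. At the upper end was DBF4, the activating subunit of the CDC7 kinase that fires origins, with 3289 in sh-CTL, 4311 after PLK1i and 2542 in sh-METTL3 and 0.39. RRM2, the regulatory subunit of ribonucleotide reductase, was at 0.19. Among G1 regulators, E2F1 was called lower (-0.40) and CDKN1A higher, and the list median was -0.12 over 20 genes.

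H2AX and ATM, markers of the DNA damage response, were called lower. H2AX (chromosome 11, 118964584 to 118966175, minus strand of hg19), the histone variant that is phosphorylated around double-strand breaks, was measured at 6327 in sh-CTL, 4588 after PLK1i and 6747 in sh-METTL3, a difference of -0.46 (interval -0.52 to -0.41). ATM (chromosome 11, 108093771 to 108239829, plus strand of hg19), the kinase that responds to such breaks and phosphorylates H2AX, was at 5596 in sh-CTL, 4193 after PLK1i and 5558 in sh-METTL3, a difference of -0.42 (interval -0.48 to -0.36). In both genes the drug-free libraries lay close together and the treated library under them. These were the 2 genes called among 53 genes of damage signalling and double-strand break repair. As a share this was 3.77%, near the 3.17% of all genes called lower. Of the 53 genes 38 were below 0, with a median of -0.068. The related kinase ATR differed by -0.01, its target kinase CHEK1 by -0.12, and PRKDC, the catalytic subunit of DNA-PK, by -0.36 from 58811 in sh-CTL to 45826.

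Immediate early genes were the list with the most genes called higher. They encode transcription factors and feedback proteins that growth factors, stress or cytokines switch on within minutes. Of 33 genes of this list in the table, 25 reached the minimum, of which 11 were called higher, 1 was called lower and the median was 0.39, next to 0.0047 for all genes and a background of 2.54% called higher. Each of the 11 stood above 200 in sh-CTL itself. EGR1 (chromosome 5, 137801168 to 137804992, plus strand of hg19), a zinc finger factor, was measured at 2045 in sh-CTL, 4831 after PLK1i and 2169.8 in sh-METTL3, a difference of 1.24 (interval 1.16 to 1.32). The drug-free libraries were near each other and the treated one was 2.36 times the level of sh-CTL. JUN, a subunit of the AP-1 transcription factor, was at 3527 in sh-CTL, 6755 after PLK1i and 4462 in sh-METTL3, a difference of 0.94. Its partners FOS and FOSL1 were higher by 1.04 and 0.66, from 285 to 587 and from 7198 to 11357, but here sh-METTL3 lay between the other two, at 450.5 and 9189.5. FOSL2, another FOS protein, was at -0.004.

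MYC (chromosome 8, 128747680 to 128755197, plus strand of hg19), a growth-promoting factor and an early response gene, was measured at 6971 in sh-CTL, 9847 after PLK1i and 5897 in sh-METTL3. It was higher after PLK1i by 0.50 (interval 0.45 to 0.54), and higher than in both drug-free libraries. In the list of MYC and its partners and targets, 2 of 41 genes were called higher, MYC and MXD1, and 1 lower, MXD3. The background was 2.54% higher and 3.17% lower. Of the 41 genes 29 lay above 0 and the median was 0.11. MXD1 and MXD3 encode repressors that compete for the partner protein MAX. KLF4, a further early factor, was higher than sh-CTL by 1.08, at 226 in sh-CTL, 481 after PLK1i and 1699.9 in sh-METTL3, and here the highest level by far was that of sh-METTL3. The remaining genes called higher were MAFF, BTG1, IER3, KLF10 and ZFP36, with differences from 0.40 to 0.73. IER5L was called lower, at -0.56.

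Genes of MAP kinase feedback and the ETS factors were called in both directions. Of 20 such genes, 4 were called higher and 2 lower (background 2.54% and 3.17%). The dual-specificity phosphatases DUSP1, DUSP2 and DUSP5, which remove phosphate from ERK, JNK or p38, were called higher, by 0.64, 0.70 and 0.79. DUSP5 was measured at 442 in sh-CTL, 764 after PLK1i and 498 in sh-METTL3, with the treated library above both others. SPRY1, an inhibitor of receptor signalling upstream of ERK, was called lower, at -0.69 (interval -0.79 to -0.60). It was measured at 2635 in sh-CTL, 1628 after PLK1i and 2502 in sh-METTL3. Of the 8 ETS factors described, ETV1 was called lower, at -0.67, and ETS1 higher, at 0.42. In the ERK cascade itself 0 of 17 genes were called. Of 7 genes of the EGF receptor family and its ligands, HBEGF was the one called higher, at 573 in sh-CTL, 1079.9 after PLK1i and 504 in sh-METTL3 and 0.91 (interval 0.76 to 1.07), while the receptor EGFR was at -0.22.

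NF-kB genes were the second group with many calls. NF-kB dimers wait in the cytoplasm bound to inhibitors and switch on cytokine and survival genes, several of their own subunits and inhibitors among them. Of 27 genes of the list in the table, 23 reached the minimum, of which 10 were called higher (background 2.54%) and 0 lower. Of the 23 genes 9 were higher than in both drug-free libraries (background 1.46%), and the median was 0.23. The minimum takes in the treated library, and CXCL2, among the 10, reached it through that library. Among the subunits, RELB, NFKB2 and REL were higher by 0.83, 0.55 and 0.51, whereas RELA and NFKB1 were at 0.11 and 0.22. RELB was measured at 229 in sh-CTL, 406 after PLK1i and 195 in sh-METTL3. The inhibitors NFKBIB and NFKBIE were higher by 0.42 and 0.48, and NFKBIA was at -0.14.

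Among the cytokines, CXCL8 (interleukin 8, chromosome 4, 74606236 to 74609433, plus strand of hg19), which attracts neutrophils, was measured at 1935 in sh-CTL, 3520.5 after PLK1i and 1232 in sh-METTL3, a difference of 0.86 (interval 0.78 to 0.95). CXCL2, a chemokine of the same family, was at 247 in sh-CTL, 427 after PLK1i and 69.5 in sh-METTL3, higher by 0.79, and LIF was higher by 0.53. In CXCL8 and CXCL2 the order of the libraries was the same, with sh-METTL3 lowest and the treated library highest. BIRC3 and TRAF1, which act in TNF receptor signalling, were higher by 0.56 and 0.72. Of 29 interferon-induced genes 5 were called higher and 2 lower (background 2.54% and 3.17%), while 14 lay above 0, the median was -0.0093 and 1 gene was higher than in both drug-free libraries. IFIT3 had the largest difference of the list, 0.98, at 799.9 in sh-CTL, 1583 after PLK1i and 1094 in sh-METTL3.

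**Figure D2:**
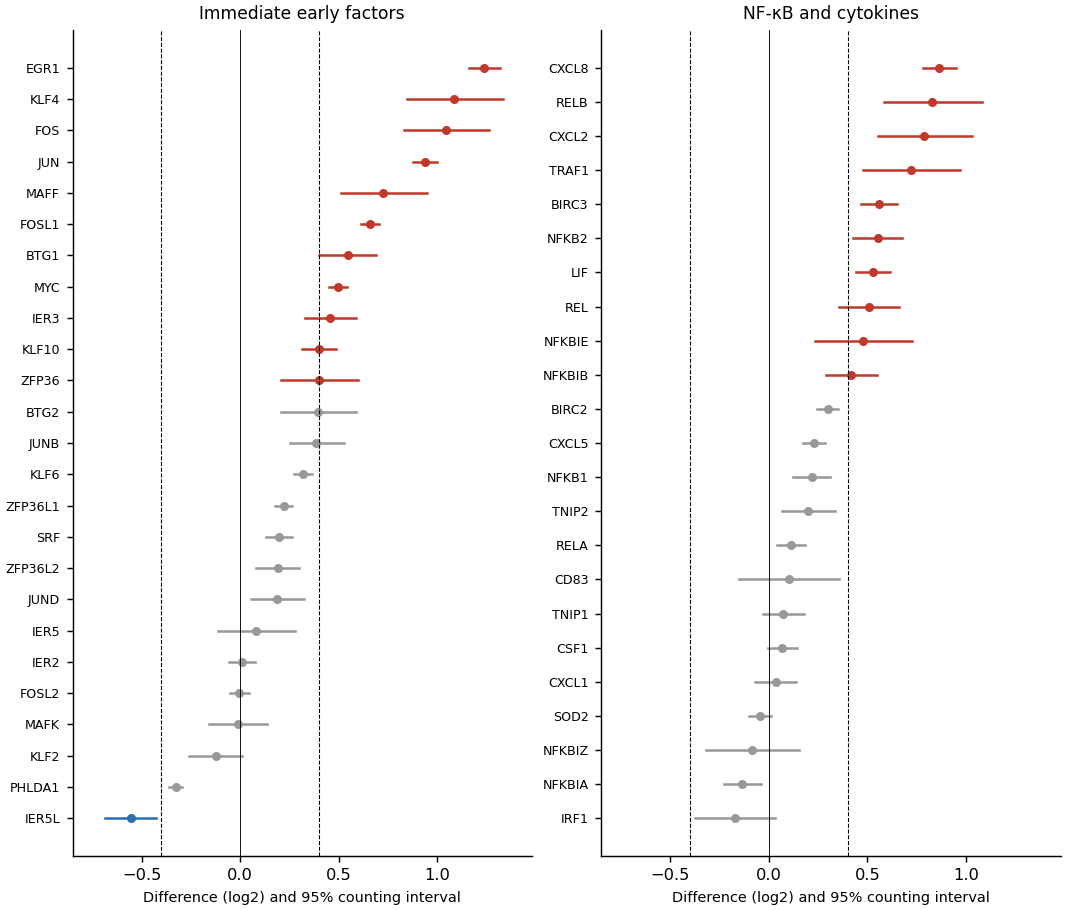
Difference between sh-CTL + PLK1i and sh-CTL (log2 of normalized value + 1) for each gene described in 2 lists, immediate early factors (left, 25 genes) and NF-κB with cytokines (right, 23 genes), with the exact 95% counting interval as a bar. Red marks genes called higher (11 and 10), blue the 1 gene called lower, grey the others, and dashed lines stand at -0.4 and 0.4.

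The promoters of the genes called higher were searched for sequence motifs that factors of these groups are known to bind. RefSeq promoters of the GRCh38.p14 build, 250 bases before to 50 bases after the start, were matched by symbol to 8510 of the 10782 genes, 177 of them called higher and 235 lower. The cyclic AMP response element TGACGTCA was present in 11 of the 177 promoters of genes called higher (6.21%), in 2 of the 235 of genes called lower (0.851%), in 3.56% of the 8510 and in 1.98% of all 27305 promoters. The pattern TGANTCA takes in the AP-1 site, TGACTCA or TGAGTCA, but also TGAATCA and TGATTCA. It was present in 20 (11.3%), 8 (3.40%), 3.94% and 7.76% of the same groups. Some promoters matched only through TGAATCA or TGATTCA, such as FAS among genes called higher and OLMALINC among those called lower. These shares describe letters in a window, with no test, and do not show that a factor was bound.

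**Figure D3:**
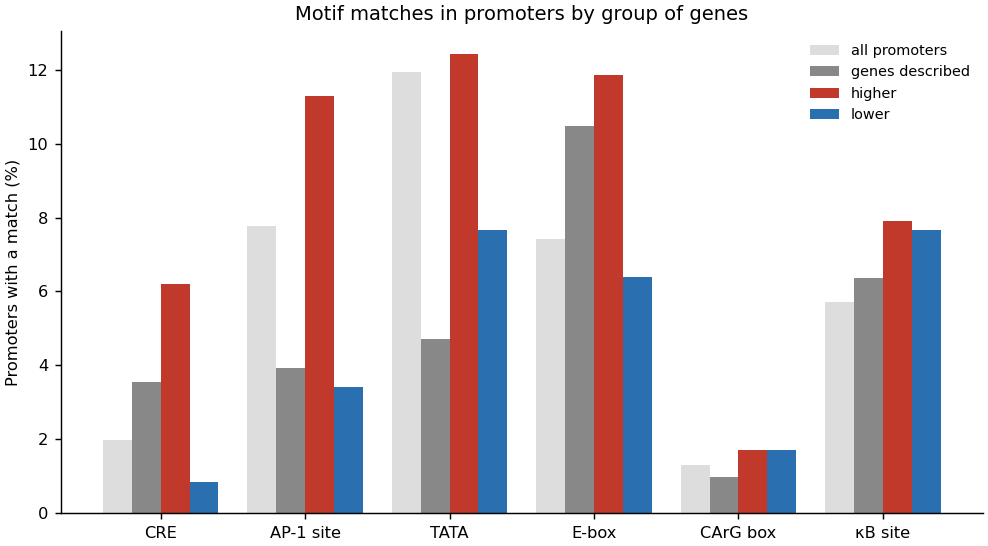
Share of promoters with at least 1 match (vertical axis, %) for 6 motifs, in all 27305 RefSeq promoters (light grey), in the 8510 genes described (dark grey), in the 177 genes called higher (red) and in the 235 called lower (blue). The bars labelled AP-1 site count the wider pattern TGANTCA. The red bars for the cyclic AMP response element (CRE) and this pattern, at 6.21% and 11.3%, stand above the dark grey bars at 3.56% and 3.94%.

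Other motifs were searched in the same promoters. TATAAA was found in 12.4% of promoters of genes called higher and 7.66% of those called lower, against 4.72% of the genes described and 11.95% of all promoters. The E-box CACGTG, bound by MYC with MAX and by the clock factors, was found in 11.9%, 6.38% and 10.5% of the higher, lower and described genes. The CArG box bound by SRF (1.69% and 1.70%) and the kappaB site of NF-kB (7.91% and 7.66%) were about as frequent in promoters of genes called higher as in those called lower. The CHR element TTTGAA was found in 11.9%, 15.3% and 9.22% of the higher, lower and described genes. For the CCAAT box these shares were 42.9%, 41.7% and 37.3%, and for the GC box GGGCGG 62.1%, 65.5% and 72.5%. All motifs were searched on both strands, and a base may belong to more than one match.

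The promoters of 7 genes called higher are printed to show the cyclic AMP response element, in capitals, with the flanking bases, all upstream of the start and given 5′ to 3′ on the strand of the gene. Positions count back from the start, with -1 as the base before it. DUSP1, MAFF and PPP1R15A are stress and early response genes, H2BC12 is a histone H2B gene, VGF encodes a secreted neuropeptide precursor, NUP42 a nucleoporin and SLC25A25 a mitochondrial carrier of ATP-Mg and phosphate.
DUSP1, chr5:172771303-172771330, minus strand, capitals from -125 to -118: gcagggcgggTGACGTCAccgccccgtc
MAFF, chr22:38201930-38201957, plus strand, capitals from -54 to -47: gccgggtcggTGACGTCAccgcatgact
PPP1R15A, chr19:48872353-48872380, plus strand, capitals from -58 to -51: cctctcttcgTGACGTCAgcacgccggg
H2BC12, chr6:27146940-27146967, minus strand, capitals from -99 to -92: aactaacctcTGACGTCAccctaataac
VGF, chr7:101165631-101165658, minus strand, capitals from -79 to -72: gaatgaacatTGACGTCAatggggcggg
NUP42, chr7:23181965-23181992, plus strand, capitals from -73 to -66: cgcgagaagaTGACGTCAcagtagcccg
SLC25A25, chr9:128098297-128098324, plus strand, capitals from -200 to -193: gagggagcggTGACGTCAgccctgatct
PPP1R15A (GADD34), which directs the phosphatase that reverses phosphorylation of eIF2alpha, was measured at 1178 in sh-CTL, 1782 after PLK1i and 1161 in sh-METTL3, a difference of 0.60. VGF, NUP42 and SLC25A25 were higher by 0.77, 0.50 and 0.55.

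The AP-1 site is shown in capitals in the promoters of 2 of the genes with large differences.
CXCL8, chr4:73740422-73740448, plus strand, capitals from -137 to -131: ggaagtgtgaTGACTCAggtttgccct
DDIT3, chr12:57520739-57520764, minus strand, capitals from -241 to -235: gcgcgcgcaTGACTCAcccacctcct
The EGR1 promoter carried 2 CArG boxes, in capitals.
EGR1, chr5:138465364-138465415, plus strand, capitals from -105 to -74: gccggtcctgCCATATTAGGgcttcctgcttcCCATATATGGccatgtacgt
The kappaB site is shown in capitals in the promoters of the NF-kB targets BIRC3 and CXCL2.
BIRC3, chr11:102317275-102317304, plus strand, capitals from -199 to -190: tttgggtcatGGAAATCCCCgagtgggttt
BIRC3, chr11:102317339-102317368, plus strand, capitals from -135 to -126: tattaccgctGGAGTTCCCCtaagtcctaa
CXCL2, chr4:74099253-74099283, minus strand, capitals from -78 to -68: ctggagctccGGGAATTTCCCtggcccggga

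LUCAT1 (chromosome 5, 90350651 to 90610364, minus strand of hg19), a stress-induced long noncoding RNA, had the largest difference of any gene with a symbol and reached the minimum mean through the treated library. It was measured at 149 in sh-CTL, 460.3 after PLK1i and 179 in sh-METTL3, from 128 reads in sh-CTL to 500 in the treated library, a difference of 1.62 (interval 1.34 to 1.92). TXNIP, an inhibitor of thioredoxin and of glucose uptake, followed at 711 in sh-CTL, 1822 after PLK1i and 1971 in sh-METTL3 and 1.36, but sh-METTL3 was as high as the treated library. H2BC12 was at 381 in sh-CTL, 957 after PLK1i and 319.8 in sh-METTL3, a difference of 1.32 (interval 1.15 to 1.51), above both drug-free libraries. It and H2AC6 (1.06) were 2 of only 3 replication-dependent histone genes described, of 30 in the table. The library kit selects mRNA, and most transcripts of these genes are known to lack a poly(A) tail.

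MMP1 (chromosome 11, 102660132 to 102668891, minus strand of hg19), the interstitial collagenase, was measured at 351 in sh-CTL, 841 after PLK1i and 4.63 in sh-METTL3. The treated library was 2.39 times sh-CTL, a difference of 1.26 (interval 1.07 to 1.45), whereas in sh-METTL3 the gene had 5 reads, so the difference from that library was 7.22. PLAUR, the urokinase receptor, was at 2275 in sh-CTL, 3019.7 after PLK1i and 2783 in sh-METTL3, higher than sh-CTL by 0.41, and MMP15, a membrane-type matrix protease, was called lower at -0.42. CCN1, a matrix protein and target of the YAP coactivator, was at 3363 in sh-CTL, 6246 after PLK1i and 1738 in sh-METTL3. Its difference was 0.89 (interval 0.83 to 0.96). It was the 1 gene called among 12 YAP targets (background 2.54% higher and 3.17% lower).

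GEM, a small GTP-binding protein, was at 222 in sh-CTL, 531 after PLK1i and 159 in sh-METTL3, a difference of 1.26. NR1D1 (REV-ERBalpha), a nuclear receptor that represses in the circadian clock, was at 742 in sh-CTL, 1648 after PLK1i and 571 in sh-METTL3, a difference of 1.15 (interval 1.02 to 1.28). Of 13 clock genes 5 were called higher and 1 lower (background 2.54% and 3.17%), with a median of 0.28. PER1, BHLHE40, BHLHE41 and ARNTL (BMAL1) were higher by 0.86, 0.56, 0.54 and 0.43, and DBP, an output factor of the clock, was lower at -0.52. The time of day at which the cultures were collected is not given in the sources used here.

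**Figure D4:**
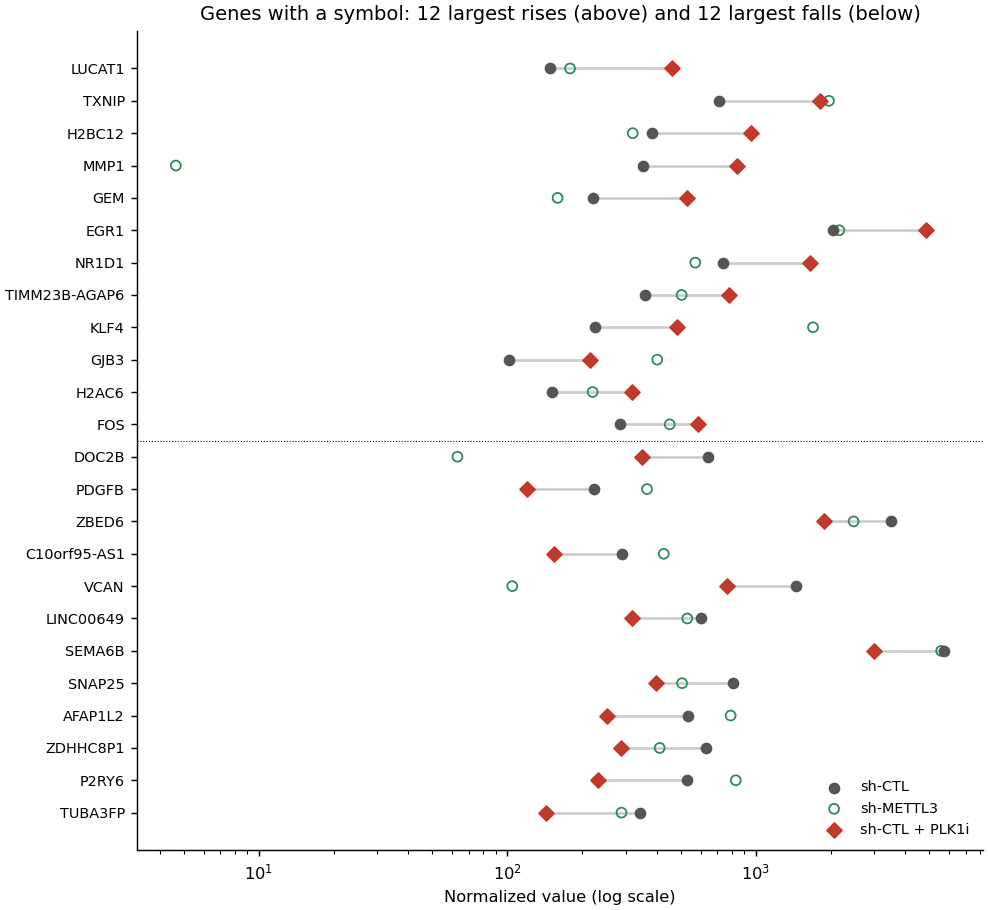
Normalized value in each library (horizontal log axis) for the 12 genes with a symbol that had the largest positive differences (above the dotted line) and the 12 with the largest negative ones (below). Filled circles are sh-CTL, open circles sh-METTL3 and diamonds sh-CTL + PLK1i, so a diamond outside both circles, as for LUCAT1, EGR1, SEMA6B and P2RY6, marks a gene that differed from both drug-free libraries.

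The 12 largest differences also held transcripts whose reads are hard to assign. ENSG00000285901 had 0 reads in sh-CTL, a normalized value of 199 in sh-METTL3 and 455 in the treated library, which is at least 130-fold higher than sh-CTL when 3 reads are taken as its floor in that library. Of its exon length 49.8% is shared with other listed genes on the same strand, TIGAR among them, and TIGAR itself was at -0.01. ENSG00000288534 (1.32) shares 99.8% of its exon length with other listed genes. Also among the 12 were ENSG00000226380 (1.67), ENSG00000285106 (1.19) and the readthrough transcript TIMM23B-AGAP6 (1.12). ENSG00000226380 was not in the annotation, so its overlap is not known. In 222 genes, at least 50% of the exon length was shared with other listed genes on the same strand. Of these, 9.01% were called higher and 5.86% lower, against 2.41% and 3.12% of the other 10560 genes (42 not in the annotation). They were also weaker, with a median level of 752 against 1701, and the part of shared reads and of level in these counts was not tested.

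Among the genes that were lower, P2RY6 (chromosome 11, 72975543 to 73016148, plus strand of hg19), a receptor for UDP, had the largest difference of any protein-coding gene. It was measured at 527 in sh-CTL, 232 after PLK1i and 831 in sh-METTL3, a difference of -1.18 (interval -1.41 to -0.96). AFAP1L2, an adaptor of SRC signalling, was at 534 in sh-CTL, 251.3 after PLK1i and 792 in sh-METTL3 and -1.08, and SEMA6B, a transmembrane semaphorin, at 5734 in sh-CTL, 2986 after PLK1i and 5579 in sh-METTL3 and -0.94 (interval -1.01 to -0.88). In these 3 genes the treated library was lowest. SNAP25, a protein of vesicle fusion, was at -1.03 and VCAN, the matrix proteoglycan versican, at -0.91, and for VCAN the lowest level was that of sh-METTL3, 105 against 769 after PLK1i. Pseudogenes and noncoding RNAs made up much of the remainder, with TUBA3FP (-1.25), ZDHHC8P1 (-1.13), ENSG00000261379 (-1.12), ENSG00000285796 (-1.004), LINC00649 (-0.92) and C10orf95-AS1 (-0.91). ZBED6 (-0.89) shares 95.7% of its exon length with a neighbour on the same strand.

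Some genes of stress responses were called higher. In the integrated stress response, in which ATF4 and its partners act when translation is restrained, 5 of 37 genes were called higher (background 2.54%), 0 lower, and the median was 0.085. DDIT3 (CHOP), the late factor of this response, was at 267 in sh-CTL, 536 after PLK1i and 259 in sh-METTL3, a difference of 1.002 (interval 0.78 to 1.23), and its partner CEBPB was higher by 0.81. PSAT1, an ATF4 target for serine synthesis, was at -0.39. Of 21 genes of oxidative stress, 5 were called higher against the same background, 0 lower, with a median of 0.064. All 5 were listed as targets of NRF2, namely TXNRD1 (0.55), SRXN1, OSGIN1, HMOX1 and SLC7A11. In contrast, the inducible chaperones HSPA1A and HSPA1B, which are near-identical copies and may share reads, were lower at -0.63 and -0.60. Neither was called lower than both drug-free libraries, and the median of 19 heat shock genes was -0.0093.

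Single genes of growth arrest and cell death were called higher as well. GADD45A, a stress-induced regulator of the cell cycle, was at 1515 in sh-CTL, 2987 after PLK1i and 853 in sh-METTL3, a difference of 0.98 (interval 0.89 to 1.07), and CDKN1A (p21), an inhibitor of cyclin-dependent kinases, was at 506 in sh-CTL, 766 after PLK1i and 154 in sh-METTL3 and 0.60. Both were above the 2 drug-free libraries and both were lowest in sh-METTL3. FAS, a death receptor, was higher by 0.43 and SESN2, a stress-induced regulator of growth, by 0.41. None of 11 genes of the BCL2 family was called (background 2.54% higher and 3.17% lower), the nearest being PMAIP1 (NOXA) at 0.38.

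Among secreted signals, TGFB3 was higher by 0.98, at 254 in sh-CTL, 501 after PLK1i and 243 in sh-METTL3, and SMURF2, a ubiquitin ligase of the same pathway, by 0.46. ID1, ID2 and ID3, inhibitors of helix-loop-helix factors and targets of BMP signalling, were lower by similar amounts, at -0.52, -0.53 and -0.55. ID3 was measured at 8331 in sh-CTL, 5680.0 after PLK1i and 4579 in sh-METTL3. ID1 was lowest in the treated library, and ID2 and ID3 were lowest in sh-METTL3. Of 23 TGF-beta genes, 2 were called higher and 3 lower (background 2.54% and 3.17%), and 0 were called lower than both drug-free libraries. Of the actin and SRF genes, CNN3, TAGLN and RHOB were called higher of 25, all 3 above both drug-free libraries (background 2.54% and 1.46%).

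Several large groups had no gene or a single gene called, next to 2.54% of all genes called higher and 3.17% lower. Of genes with a mean above 5000, 0.98% were called higher and 1.45% lower. In the smaller of these groups, so few calls are near these shares. Of 76 cytosolic ribosomal protein genes 0 were called, and they ran from -0.16 to 0.12. Of 77 nuclear-encoded genes of the respiratory chain 0 were called, 52 were below 0 and the median was -0.052. The 15 genes of the mitochondrial genome had a median of 0.20, 14 of them above 0 and none called, and the exception was MT-ND6 (-0.24), the one protein gene on the opposite strand of that genome. Of 33 genes of cholesterol and fatty acid synthesis 26 were below 0 with a median of -0.093, and INSIG1 was the one called, at -0.44. Of 18 genes that write, erase or read m6A 0 were called, with FTO, a demethylase, at -0.24.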

How the data were processed

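RNA from 3 MIAPaCa-2 cultures was made into libraries with a stranded mRNA kit per the labels. The submitters' processing notes name FastQC 0.11.9, STAR 2.7.10, RSEM 1.3.3 and hg19, and the annotation and size factor method are not given in the sources used here. The values deposited by the authors are log2 of reads divided by a size factor, plus 4. The log2 was undone and the 4 subtracted, which gave whole reads within 0.1 for 100% of the values tested below 2000 reads (10708, 9950 and 9848 values in sh-CTL, sh-METTL3 and sh-CTL + PLK1i). One read was worth 1.17, 0.927 and 0.921 normalized units.

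Differences are log2(normalized value + 1) in sh-CTL + PLK1i minus sh-CTL, which understates changes of low genes. Genes needed a mean of at least 200 over the 3 libraries, and the 10782 that passed hold over 99% of the reads. With 1 library per group no test across genes was run, so no p-value is given, and genes were called at 0.4. Intervals are exact Clopper-Pearson at 95% on the reads of both libraries, and a gene at 0 was set to a floor of 3 reads per library for a bound. The calculation was tested on simulated data. Gene positions and exon overlaps come from GENCODE 44 on GRCh37, and promoters from RefSeq on GRCh38.p14 by symbol. Python 3.11.15, numpy 2.4.6, pandas 2.3.3 and SciPy 1.17.1 were used.

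The genes, 47 lists and alternatives were chosen with earlier results of these data known, so no list is independent evidence. Genes named are PLK1, METTL3, MYC, H2AX, ATM and MMP1, the 12 largest positive and 12 largest negative differences, and in each list the genes called and up to 4 others. Some genes, 1 list and 1 sequence are not reported here. Alternatives changed the pseudocount, minimum mean, scaling, gene type, GC and length trend and call size.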

Additional observations from a re-analysis of the deposited data

How the results depend on the processing

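No paired analysis was possible because each group was 1 library and the labels give no replicate numbers, so leaving out a library was not possible either. Under 13 alternatives, 1870 values were recomputed for the counts, the list medians and 122 named genes. Of these, 1835 were labelled the same, 35 moved and no gene changed sign. Counts had to stay within 1.5 times, and genes within a tolerance from the width of their counting interval. A list median took this tolerance from the member nearest it, and the median of all genes from the median width. Of the values 1291 were single genes, for which the outcome was mostly fixed by construction. The minimum mean and gene type leave a gene's difference unchanged, and the scalings shift all genes nearly alike. Across all alternatives 10 list medians and 2 medians of all genes did turn sign. The interferon median was 0.059 with a minimum of 50 and 0.075 with none, against -0.0093. The other scalings shifted the median of all genes by at most 0.015 in size, and with upper quartile scaling 241 genes were called higher and 384 lower.

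The counts follow the minimum mean and the call size. With a minimum of 50, 586 genes were higher and 714 lower than sh-CTL, and 295 and 440 were higher and lower than both drug-free libraries. With a minimum of 500 these counts were 159, 191, 95 and 117, and with no minimum 1107, 1251, 561 and 772. A call size of 0.5 gave 134, 169, 75 and 95, and a call size of 1 gave 19, 7, 10 and 4. The number of genes let in or the size asked for sets these counts by construction.

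Medians of lists that moved did so mostly where genes under the minimum entered. With a minimum of 50 they were 0.14 for MAPK feedback and ETS, 0.36 for NF-kB and cytokines, 0.068 for matrix proteases and -0.019 for Wnt and Notch, and with no minimum 0.15, 0.30, 0.11 and -0.019, and 0.44 for replication-dependent histones. With the trend of GC content and transcript length removed, medians were -0.025 for heat shock, -0.017 for oxidative stress (0.064 before), -0.023 for cytosolic ribosomal proteins (0.0081 before) and 0.15 for the mitochondrial genome, and with upper quartile scaling heat shock was at -0.025. TUBB was at -0.42 with upper quartile scaling. The cause of these shifts was not tested. Weakly expressed genes are limited most by depth, since the counting interval of a gene with a mean from 200 to 500 was 0.47 wide at the median, against 0.088 above 5000.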

Other observations

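Genes under the minimum mean of 200 were left out of the report, and some belong to the groups described there. All sets in this section were chosen after their values were seen. Of 8 immediate early genes under the minimum, 7 were higher in sh-CTL + PLK1i by 0.4 or more and 0 were lower, against 19.99% and 21.8% of all genes under the minimum. EGR4 was at 10.5 in sh-CTL, 253 after PLK1i and 13 in sh-METTL3, EGR2 at 5.83 in sh-CTL, 56.2 after PLK1i and 13 in sh-METTL3 and FOSB at 53.6 in sh-CTL, 303 after PLK1i and 33.4 in sh-METTL3, all low in both drug-free libraries. ATF3, a stress-induced factor, was at 92.1 in sh-CTL, 353 after PLK1i and 131 in sh-METTL3 and EGR3 at 106 in sh-CTL, 303 after PLK1i and 127 in sh-METTL3, differences of 1.92 and 1.504. Such rows are weak on their own, because among the 4167 genes under the minimum 189 were higher and 162 lower by 2-fold or more, with an SD across genes of 0.68.

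The neighbours of MMP1 on chromosome 11 gave a like picture at low levels. MMP10, a stromelysin, was at 53.6 in sh-CTL, 107 after PLK1i and 0 in sh-METTL3, MMP12 at 47.8 in sh-CTL, 81 after PLK1i and 0 in sh-METTL3 and MMP13, a further collagenase, at 12.8 in sh-CTL, 63.5 after PLK1i and 0 in sh-METTL3, so all 3 were listed at 0 in sh-METTL3 and highest after PLK1i. Of 27 replication-dependent histone genes under the minimum, 13 were higher by 0.4 or more and 9 lower. By type, 7 of 8 H2B genes were higher and 0 lower, 4 of 6 H4 genes higher and 1 lower, and 1 of 6 H2A genes higher and 5 lower, of which 2 had counting intervals below 0. H2BC4 was at 45.5 in sh-CTL, 161 after PLK1i and 44.5 in sh-METTL3 and H2BC21 at 82.8 in sh-CTL, 247 after PLK1i and 101 in sh-METTL3, while the linker histone H1-5 was at 46.6 in sh-CTL, 18.4 after PLK1i and 30.6 in sh-METTL3.

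Noncoding RNAs were called more often than coding genes. Of 333 long noncoding RNAs described, 24 were called higher and 56 lower, or 7.21% and 16.8%, against 2.30% and 2.701% of 10146 protein-coding genes. MALAT1, an abundant nuclear RNA, was among the higher ones at 8468 in sh-CTL, 13719.9 after PLK1i and 8006 in sh-METTL3, a difference of 0.70 (interval 0.66 to 0.74). Of 20 host genes of small nucleolar RNAs named SNHG, 0 were called higher and 4 lower, SNHG19, SNHG10, SNHG4 and SNHG3, with differences from -0.72 to -0.42. The median level was 466 for long noncoding RNAs against 1801 for protein-coding genes, and its part in the counts was not tested.

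All 3 genes described whose starts lie within 1 Mb of the start of MYC were called higher than in both drug-free libraries (background 1.46%). They were MYC (0.50), on which the window was centred, the long noncoding RNA PVT1 beside it (0.58) and CASC19 (1.01). CASC19 was measured at 1691 in sh-CTL, 3396 after PLK1i and 979 in sh-METTL3, and PVT1 at 793 in sh-CTL, 1183 after PLK1i and 675 in sh-METTL3. Of 6 pseudogenes of the kinase gene SMG1, 4 were called higher, against 5.13% of the 234 pseudogenes described. SMG1P2 (1.04) and SMG1P3 (0.78) led them, while SMG1 itself was at -0.01. Reads of these near-identical copies may be shared.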
